A study of Mus musculus with 3 samples.

Results

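Classical monocytes are blood leukocytes that leave the bone marrow with the chemokine receptor Ccr2 and enter inflamed tissue, where they can become macrophages, dendritic-like cells or, in bone, osteoclasts. In the mouse they carry the surface protein encoded by Ly6c2 and the transglutaminase subunit F13a1, and they depend on the growth factor receptor Csf1r. Monocytes that patrol vessels instead carry the fractalkine receptor Cx3cr1 and little Ly6c2. Arg1 encodes arginase, which breaks down arginine and marks a state of many tumour macrophages. The cells described here were Ccr2-positive cells of the monocyte lineage with little or no Arg1 RNA, in mouse calvaria, the roof of the skull.

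The members were chosen by their own counts of unique molecular identifiers (UMIs, counted RNA molecules), so the genes of that choice are given as a description only. A member held at least 1 UMI of Csf1r and at least 1 of Ccr2, fewer than 3 of Arg1, and 0 of Flt3, a receptor of dendritic cells and progenitors. It also held less than 10 UMIs per 10000 of the cell for the 3 complement C1q chains together, less than 20 for Elane, Mpo and Prtn3 (granule genes of progenitors), less than 10 for the osteoclast protease Ctsk, and less than 5 for the keratins Krt8 and Krt18. The rule was applied to 23831 cells that had 500 or more genes and no more than 10% of UMIs from mitochondria, and 911 met it. They were 311 of 6577 cells in control, 393 of 8151 in scratch-negative and 207 of 9103 in scratch-positive.

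All 3 libraries came from C57BL/6 mice aged 8 weeks, with live CD45-positive and CD45-negative cells combined in equal numbers before loading. The control calvaria bore no tumour. In the scratch-negative group HNM007 cells, a mouse squamous carcinoma line, were placed on the calvaria with its surface intact, a stage the submitters call pre-invasive. In the scratch-positive group a needle had been drawn over the bone beforehand, which takes away the periosteum (the sheath around bone), and the submitters call that stage invasive. Tissue was collected 1 week after implantation and the tumour was cut out. Each group had 1 library, and the number of mice behind it is not given in the sources used here. No spread between mice could therefore be measured, no test between groups exists, and every interval covers counting error only. Scratched bone without a tumour was not among the libraries, so scratching, loss of periosteum and invasion cannot be told apart.

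Between 2 libraries a gene was called higher or lower when its ratio reached 1.5-fold and the 95% counting interval of that ratio did not hold 1. Levels are counts of UMIs per 1000000 UMIs of the summed members of a library (CPM). The 3 libraries held 16 to 30 barcodes in common pairwise, and none of these was a member in both. The median member held 10572 UMIs in control, 16073 in scratch-negative and 14324 in scratch-positive.

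The members were of more than 1 kind. S100a8 and S100a9, which encode the calprotectin of neutrophils, were used to divide them at 200 UMIs per 10000 of the cell. A limit of 50 had been planned and is among the alternatives at the end. Few cells lay at 200 to 400 (4 in control, 13 in scratch-negative and 7 in scratch-positive). The bins beside it were also thin, with 8, 15 and 5 cells at 100 to 200 and 8, 7 and 3 at 400 to 800. At 200 or more were 132 members in control (42.4%, 36.9 to 48.1), 229 in scratch-negative (58.3%, 53.2 to 63.2) and 91 in scratch-positive (44.0%, 37.1 to 51.0). These S100-high members held 71.0%, 81.9% and 61.9% of all member UMIs in control, scratch-negative and scratch-positive, with medians of 27038, 27945 and 23922 UMIs. Their Ngp, a neutrophil granule gene, was at 31448 CPM in control, 30685 in scratch-negative and 22521 in scratch-positive. Neutrophils of the same libraries, taken as S100-high cells without Csf1r, had Ngp at 39163, 34649 and 28281. Ngp thus stood near the level of neutrophils in the S100-high members.

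**Figure D1:**
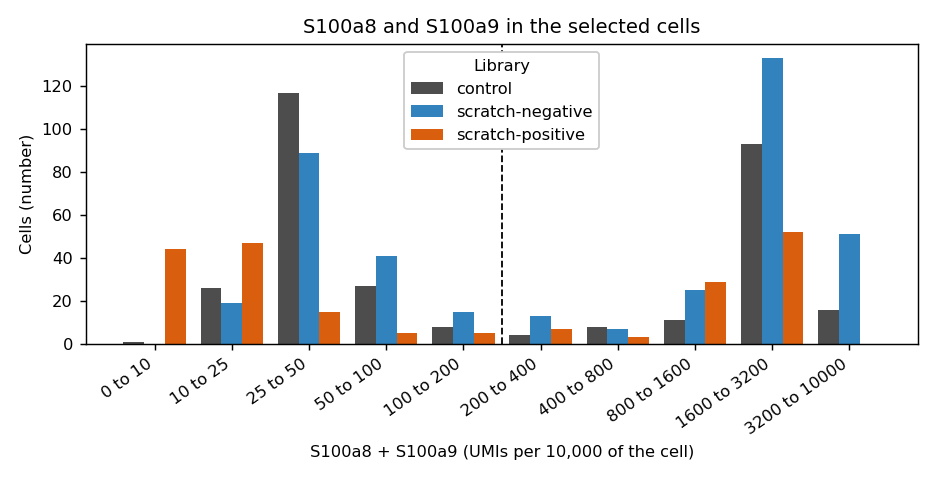
Number of members (y axis) by summed S100a8 and S100a9 in UMIs per 10000 of the cell (x axis, unequal bins), for the 3 libraries. The dashed line at 200 separates 132, 229 and 91 S100-high members in control, scratch-negative and scratch-positive from the others, and few members lie next to it.

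A further 33 members had low S100 and RNA that defines another cell class, such as collagens, globins or the receptors of lymphocytes and natural killer cells: 8 in control, 12 in scratch-negative and 13 in scratch-positive. The remaining 426 members are called core cells: 171 in control, 152 in scratch-negative and 103 in scratch-positive. This division was made after the values had been seen. Core cells were alike in depth, with medians of 8683, 8939 and 8942 UMIs. The doublet score Scrublet placed 2, 1 and 1 core cells among the highest scores of control, scratch-negative and scratch-positive, against 44, 47 and 0 S100-high members.

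The label of the group was checked against its 4 markers. On GRCm38 (mm10) the GENCODE annotation places Ly6c2 at chr15:75108158-75111970 (minus strand), F13a1 at chr13:36867178-37050244 (minus) and Ccr2 at chr9:124101950-124113557 (plus), all protein-coding. Ly6c2 has a close copy, Ly6c1, and reads of the pair may be split. In core cells F13a1 was at 870 CPM in control (825 to 916), 407 in scratch-negative (376 to 441) and 217 in scratch-positive (192 to 245). In S100-high members F13a1 was at 116, 54.6 and 58.2, and in neutrophils at 2.74, 3.37 and 2.19. Ly6c2 was at 1541, 1251 and 427 in core cells, at 568, 550 and 406 in S100-high members, and at 569, 491 and 363 in neutrophils. Ccr2, required by the rule, was at 877, 747 and 434 in core cells and at 193, 169 and 152 in S100-high members. Csf1r, also required, was at 266, 285 and 226 in core cells and at 106, 87.6 and 135 in S100-high members. The monocyte name thus rests on the core cells, and more weakly on those of scratch-positive. With cells reduced to the same number of UMIs, F13a1 was held by 91.2% of core cells in control, 54.0% in scratch-negative and 33.7% in scratch-positive. Ly6c2 was held by 92.5%, 89.1% and 61.1% of core cells, and by 91.0%, 87.3% and 82.1% of neutrophils. Ccr2 and Csf1r cannot test the name, since the rule required them. The S100-high members carried granule genes of neutrophils together with low monocyte genes. Their origin was not tested. In scratch-positive the level of Ly6c2 did not set core cells apart from neutrophils (427 against 363), while F13a1 did (217 against 2.19).

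Core cells are therefore described in detail, with the values of all 911 members beside them where these differ. Neutrophil markers were still present at a summed level of 5571 CPM in core cells of control, 6416 in scratch-negative and 3332 in scratch-positive, with none of the 11 at 0. Fibroblast markers summed to 33.7, 241 and 75.2, and epithelial markers to 1.22, 13.4 and 105, of which Krt5 was at 0 in every library. B-lineage markers summed to 176, 102 and 34.7 with Ms4a1 and Pax5 at 0. Osteoclast markers summed to 125, 95.1 and 527 with Calcr at 0, and dendritic-cell markers to 30.6, 69.7 and 106, of which Flt3, excluded by the rule, was at 0. The part of such RNA in the results below was not tested, and for some genes the level in another class is given.

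Members were a small share of immune cells. Among cells with a UMI of Ptprc, which encodes CD45, all members made up 5.21% in control (exact 95% interval 4.65 to 5.81, 307 cells), 5.67% in scratch-negative (5.14 to 6.24, 391 cells) and 4.45% in scratch-positive (3.87 to 5.09, 202 cells). Core cells made up 2.83% (2.42 to 3.29), 2.19% (1.86 to 2.56) and 2.18% (1.78 to 2.65). After every cell was thinned to 3000 UMIs the order turned, with core cells at 1.61%, 1.73% and 1.95% and all members at 2.18%, 2.74% and 3.30%, so no order between the libraries can be read from these shares.

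**Figure D2:**
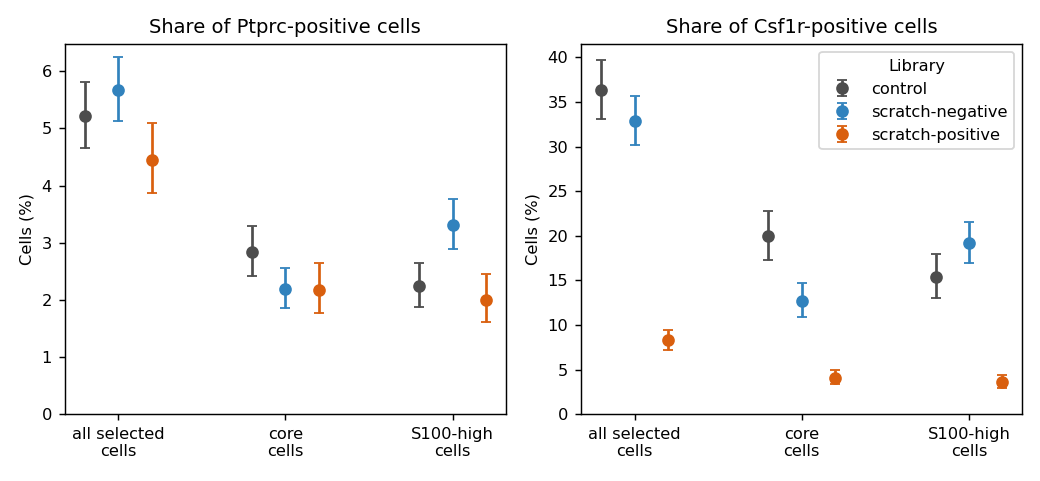
Share of members in percent (y axis) among cells with a Ptprc UMI (left) and with a Csf1r UMI (right), for all members, core cells and S100-high cells of the 3 libraries, with exact 95% binomial intervals. The share among Csf1r-positive cells is lowest in scratch-positive in all 3 sets, while the intervals overlap for most shares of Ptprc-positive cells. Cells were not thinned to equal depth here.

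Their place within the Csf1r-positive cells differed more. All members made up 36.3% of Csf1r-positive cells in control (33.1 to 39.7), 32.9% in scratch-negative (30.2 to 35.6) and 8.31% in scratch-positive (7.25 to 9.46). Csf1r-positive cells were most numerous in scratch-positive, at 2492 against 856 in control and 1195 in scratch-negative. Next to the members stood 2 gated neighbours, C1q-high cells (8, 67 and 180 cells) and Arg1-positive cells (0, 137 and 366 cells). Among core cells and these neighbours together, core cells made up 95.5% in control (91.4 to 98.1), 42.7% in scratch-negative (37.5 to 48.0) and 15.9% in scratch-positive (13.1 to 18.9). Many neighbours were S100-high, which core cells by definition were not: 48 of 67 C1q-high and 104 of 137 Arg1-positive cells in scratch-negative, and 64 of 180 and 228 of 366 in scratch-positive. With neighbours held to the same limits on S100 and on RNA of other classes, core cells made up 97.7% in control (94.3 to 99.4), 81.3% in scratch-negative (74.9 to 86.6) and 30.7% in scratch-positive (25.8 to 36.0). The order of the libraries was the same in both counts, while the shares of the tumour libraries were over 1.5 times higher in the second. The gates use measured values, so these shares describe how the rule divides the cells. None of them was taken at equal depth. Kept cells had medians of 9078 UMIs in control, 11817 in scratch-negative and 38658 in scratch-positive, so a Csf1r UMI is seen more readily in scratch-positive. The Csf1r-positive cells also include any kept cell with such a UMI, whatever its class. The part of depth and of other classes in these shares was not tested.

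In the tumour libraries cells stood on each side of the Arg1 limit of the rule. In control 311 of 311 members had 0 Arg1 UMIs. In scratch-negative 363 members had 0 UMIs, 18 had 1 and 12 had 2, and just outside the limit 7 further cells had 3 to 5. Another 61 had 6 or more. In scratch-positive 172 members had 0, 26 had 1 and 9 had 2, and 28 cells just outside had 3 to 5. Another 100 had 6 or more. Core cells of scratch-positive with 0 Arg1 UMIs (86 cells) had Ly6c2 at 471 CPM, those with 1 (12 cells) had 355, those with 2 (5 cells) had 147, and low-S100 cells just outside with 3 to 5 (15 cells) had 150. Their F13a1 was at 265, 50.7, 45.9 and 40.7, and their H2-Ab1 at 3016, 2381, 1506 and 2736. Low-S100 cells with 6 or more (29 cells) had Ly6c2 at 18.8, F13a1 at 139 and H2-Ab1 at 1638. In scratch-negative Ly6c2 did not follow the order of scratch-positive. It was at 1274 with 0 Arg1 UMIs (145 cells), 193 with 1 (4 cells) and 1267 with 2 (3 cells). Just outside it was at 1094 (2 cells), and with 6 or more at 809 (5 cells). For Ccr2, 234 cells of scratch-positive met all other limits with 0 UMIs, and 49 of them had low S100, with Ly6c2 at 26.3 and F13a1 at 8.00.

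Core cells of scratch-negative had 1391 called genes of 9183 against control (15.1%), of which 831 were higher (9.05%) and 560 lower (6.1%). In scratch-positive against control 2424 of 9163 genes were called (26.5%), 1326 higher (14.5%) and 1098 lower (12%). Between scratch-positive and scratch-negative 1866 of 9082 were called (20.5%), 975 higher (10.7%) and 891 lower (9.81%). Over all members the shares were 17.2% in scratch-negative against control (9.54% higher and 7.64% lower), 29.8% in scratch-positive against control (19.6% and 10.2%) and 25.5% between both tumour libraries (18.1% and 7.4%). Those splits over all members depended on scaling. With median-of-ratios scaling the higher and lower calls went from 1117 and 895 to 1278 and 653 in scratch-negative against control, from 2159 and 1124 to 1644 and 1564 in scratch-positive against control, and from 2101 and 857 to 1181 and 1492 between the tumour libraries. The median log2 ratio over all genes went from 0.10 to -0.04 in the second of these comparisons and from 0.16 to -0.06 in the third. In core cells the median over all genes lay between -0.01 and 0.02 in the 3 comparisons, and list medians below are to be read against that. Counts of called genes in a list are to be read against the shares of all genes given above for the same comparison.

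Genes of classical monocytes were more often called lower than higher in scratch-positive, while the calls in scratch-negative went both ways. Over all genes 9.05% were called higher and 6.1% lower in scratch-negative against control, and 14.5% and 12% in scratch-positive. Of 16 classical genes measured in core cells, 3 were higher and 2 lower in scratch-negative against control (median log2 ratio -0.15), 3 higher and 9 lower in scratch-positive against control (-0.63), and 0 higher and 7 lower in scratch-positive against scratch-negative (-0.48). Ly6c2 was 3.61-fold lower in scratch-positive than in control (3.28 to 3.98), and its level in scratch-negative differed from control by less than the call limit (1.23-fold lower, 1.16 to 1.31). F13a1 was 2.14-fold lower in scratch-negative (1.94 to 2.35) and 4.0-fold lower in scratch-positive (3.505 to 4.58). Fn1, fibronectin, was at 1259, 729 and 533 CPM in control, scratch-negative and scratch-positive. Vcan, a matrix proteoglycan of monocytes, went the other way, at 129 in control, 243 in scratch-negative and 221 in scratch-positive, 1.89-fold (1.59 to 2.25) and 1.72-fold (1.43 to 2.07) above control. Ly6a was nearly absent from control at 6.73 and stood at 275 and 288 in the tumour libraries, 40.9-fold (22.6 to 82.5) and 42.7-fold (23.6 to 86.4) higher. Keratin-positive cells held 2166 and 1081 of Ly6a in the tumour libraries and neutrophils 92.4 and 321. In core cells 5 cells held 49.6% and 53.7% of the Ly6a UMIs.

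Over all 911 members the classical list stood at 3 higher and 3 lower in scratch-positive against control, with a median of -0.02. In that set most UMIs came from S100-high members, whose Ly6c2 was at 568, 550 and 406 CPM.

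Cx3cr1, the receptor of patrolling monocytes, was lower in both tumour libraries. It was at 165 CPM in control (146 to 186), 58.9 in scratch-negative (47.3 to 72.6) and 25.6 in scratch-positive (17.4 to 36.4). That was 2.79-fold lower (2.19 to 3.595) and 6.42-fold lower (4.42 to 9.64) than control. The intervals of the 3 libraries did not overlap. Other non-classical genes did not follow 1 pattern. Of 13 measured, 5 were higher and 2 lower in scratch-negative against control, 1 higher and 5 lower in scratch-positive against control, and 1 higher and 8 lower between the tumour libraries. Nr4a1, the factor that patrolling monocytes require, was at 148, 143 and 153. Pou2f2 was at 125, 81.0 and 22.3, and Ace, the angiotensin-converting enzyme, at 22.6, 56.9 and 15.7. The integrin chain Itgax was at 1.22, 22.8 and 79.4, 64.8-fold higher in scratch-positive than in control on 2 control UMIs (17.5 to 543). For scratch-negative against control the list median was 0.44 in core cells and -0.60 over all members, so its direction depends on the set of cells.

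Receptors for tissue entry split in a similar way. Of 16 homing and chemokine receptors 5 were higher and 1 lower in scratch-negative against control, of 17 in scratch-positive 6 were higher and 5 lower, and between the tumour libraries 4 were higher and 5 lower. Ccr1, a receptor of inflammatory chemokines, was at 133, 310 and 273 in control, scratch-negative and scratch-positive. C5ar1, the receptor of the complement fragment C5a, was at 19.0, 53.6 and 120 and was called higher in each comparison. Itga4, an integrin chain of vessel adhesion, was at 290, 248 and 112, 2.58-fold lower in scratch-positive than in control (2.13 to 3.15). Cxcr4, which holds cells in marrow, was at 163, 184 and 103, and was called lower in scratch-positive against either other library.

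At equal depth, the 3 libraries differed in how many core cells held Ly6c2 and how many held MHC class II RNA (H2-Aa, H2-Ab1 or H2-Eb1). MHC class II molecules present peptides to helper T cells and are low on monocytes fresh from marrow. Core cells were thinned to 5000 UMIs, which left 159 in control, 137 in scratch-negative and 95 in scratch-positive. Cells with a UMI of Ly6c2 and none of the class II genes made up 84.9% in control (78.4 to 90.1), 48.2% in scratch-negative (39.6 to 56.9) and 23.2% in scratch-positive (15.1 to 32.9). Cells with both made up 7.55% (3.96 to 12.8), 40.9% (32.6 to 49.6) and 37.9% (28.1 to 48.4). Cells with class II and no Ly6c2 made up 4.403% (1.79 to 8.86), 8.76% (4.61 to 14.8) and 31.6% (22.4 to 41.9). In neutrophils thinned alike, which should lack class II, 2.18%, 8.61% and 9.08% held such a UMI. Of thinned neutrophils 91.0%, 87.3% and 82.1% held a UMI of Ly6c2, and of B-lineage cells 15.3% in control and 19.8% in scratch-negative. In core cells thinned alike F13a1, which only 0.511% to 0.791% of neutrophils held, had a UMI in 91.2%, 54.0% and 33.7%.

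**Figure D3:**
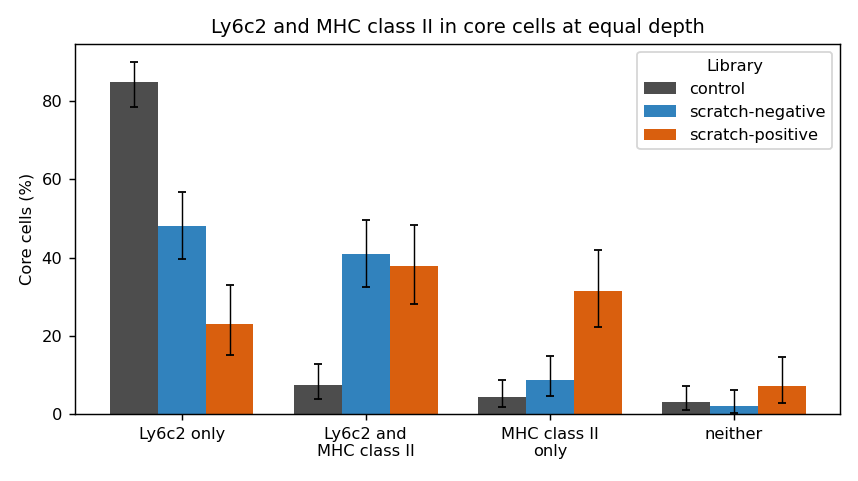
Core cells in percent (y axis) by the presence of a UMI of Ly6c2 and of MHC class II genes after thinning to 5000 UMIs, with exact 95% binomial intervals (159, 137 and 95 cells). Cells with Ly6c2 alone go from 84.9% in control to 23.2% in scratch-positive, and cells with class II alone from 4.403% to 31.6%.

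The gene levels followed the same order. Of 13 class II presentation genes, 13 were higher in scratch-negative than in control (median log2 ratio 2.18) and 11 were higher in scratch-positive (2.57). Between the tumour libraries 4 were higher and 2 lower in scratch-positive. The summed dendritic-cell markers of core cells, 30.6, 69.7 and 106 CPM in control, scratch-negative and scratch-positive, stood in the same order. Most of that sum in scratch-positive was Itgax, at 79.4 there against 1.22 in control. Cd209a, of the same markers, went the other way, at 37.5 in scratch-negative and 0.827 in scratch-positive. The part of dendritic-cell RNA in the class II values was not tested. H2-Ab1, a class II beta chain, was at 209 CPM in control (187 to 232), 1831 in scratch-negative (1763 to 1900) and 2798 in scratch-positive (2704 to 2893). Neutrophils held 11.1, 28.8 and 26.6 of H2-Ab1. The 5 highest cells held 78.6% of the H2-Ab1 UMIs of control, 37.0% of scratch-negative and 27.6% of scratch-positive. Cd74, the chaperone of class II chains, was at 797, 3622 and 4787. Ciita, the master regulator of class II genes, was at 3.06, 29.5 and 15.7 and so was lower in scratch-positive than in scratch-negative (1.88-fold, 1.07 to 3.40), where H2-Ab1 was higher (1.53-fold, 1.45 to 1.61). Of the costimulatory ligands, Cd86 was at 74.7, 141 and 151, Cd80 at 20.2, 38.8 and 65.3, and Cd40, their inducer, at 26.3, 47.6 and 20.7.

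Class I presentation followed scratch-negative. Of 15 genes, 8 were higher in scratch-negative against control and none lower, 4 higher and 1 lower in scratch-positive against control, and 1 higher and 5 lower between the tumour libraries (median -0.54). Tap1, which pumps peptides into the endoplasmic reticulum, was at 55.7 in control, 204 in scratch-negative and 112 in scratch-positive. Nlrc5, the class I transactivator, was at 9.79, 39.5 and 13.2. B2m, the shared light chain, was at 1776, 2269 and 1534 and was called in no comparison.

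Interferon genes separated the 2 tumour libraries from each other. Interferon gamma, made by T and natural killer cells, acts on gamma-activated sites, while type I interferons act through a complex that holds Irf9 on interferon-stimulated response elements. Both routes share targets. In core cells most genes of the interferon-gamma list were higher in both tumour libraries than in control. Of the 30 type I genes, 24 were higher in scratch-negative than in control, and 18 were lower and 2 higher in scratch-positive.

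The upstream sequences of 5 genes of these responses are shown because they hold the elements named above. They are the 250 bases before a RefSeq start in GRCm38.p6, 5′ to 3′ on the strand of the gene, with the match in capitals. Gbp2 lies at chr3:142620413-142620662 on the plus strand, and its match (reverse strand) to the interferon-stimulated response element starts 59 bases before the start. Cxcl10 lies at chr5:92348890-92349139 on the minus strand, with that element at 213 bases. Rsad2 lies at chr12:26456453-26456702 on the minus strand, with it at 120 bases on the reverse strand. Irf1 lies at chr11:53769764-53770013 on the plus strand, with a gamma-activated site at 90 bases. Another Irf1 window, with its upstream part at chr11:53770223-53770472, holds no match. No window of Ifit2 or Oasl1 holds the response element. Cxcl3 lies at chr5:90785851-90786100 on the plus strand, with a kappa-B site, the element of NF-kB factors, at 73 bases.
Gbp2: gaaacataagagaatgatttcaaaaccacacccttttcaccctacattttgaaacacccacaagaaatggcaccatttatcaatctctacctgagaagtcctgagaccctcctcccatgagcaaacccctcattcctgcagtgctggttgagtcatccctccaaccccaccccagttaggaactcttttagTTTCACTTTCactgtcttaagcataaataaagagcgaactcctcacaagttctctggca
Cxcl10: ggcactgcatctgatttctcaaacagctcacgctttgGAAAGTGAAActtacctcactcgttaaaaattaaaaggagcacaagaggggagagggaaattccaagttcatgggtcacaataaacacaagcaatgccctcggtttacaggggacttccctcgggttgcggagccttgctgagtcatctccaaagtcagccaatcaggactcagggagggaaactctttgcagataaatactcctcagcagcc
Rsad2: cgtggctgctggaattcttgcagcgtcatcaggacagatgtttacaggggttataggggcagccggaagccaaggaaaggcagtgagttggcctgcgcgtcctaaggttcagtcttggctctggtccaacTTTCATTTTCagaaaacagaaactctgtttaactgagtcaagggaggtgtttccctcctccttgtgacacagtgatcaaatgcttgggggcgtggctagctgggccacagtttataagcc
Irf1: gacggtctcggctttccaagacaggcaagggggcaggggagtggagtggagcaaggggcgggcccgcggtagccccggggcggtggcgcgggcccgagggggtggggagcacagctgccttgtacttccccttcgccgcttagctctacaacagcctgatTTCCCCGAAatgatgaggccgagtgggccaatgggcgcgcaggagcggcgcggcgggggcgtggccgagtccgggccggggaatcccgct
Cxcl3: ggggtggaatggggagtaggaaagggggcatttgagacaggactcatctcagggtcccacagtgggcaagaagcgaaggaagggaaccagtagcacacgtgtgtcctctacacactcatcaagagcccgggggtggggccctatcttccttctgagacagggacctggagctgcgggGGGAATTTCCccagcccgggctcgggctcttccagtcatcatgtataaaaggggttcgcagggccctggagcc

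The same letters were searched on both strands of all promoter windows, each 250 bases before to 50 after a start. The interferon-stimulated response element, GAAANNGAAA, was in 3.44% of 32851 windows, in 12 of 26 windows of the type I list (46.2%, 23 of 30 genes matched) and in 11 of 17 of the interferon-gamma list (64.7%, 15 of 20 genes matched). The gamma-activated site, TTCNNNGAA, was in 8.30% of all windows, in 19.2% of type I windows and in 41.2% of interferon-gamma windows. The kappa-B letters, GGGANTTTCC, were in 0.411% of all windows and in 4 of 22 windows of the inflammatory list, those of Cxcl1, Cxcl2, Cxcl3 and Il6. Of 14 windows of the classical monocyte list (10 of 16 genes matched), 0 held the response element or the kappa-B letters and 2 the gamma-activated letters. A match describes letters and shows no binding.

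Of 19 interferon-gamma targets measured in core cells, 19 were higher in scratch-negative than in control (median log2 ratio 2.64). In scratch-positive 15 of 18 were higher than in control and none lower (2.01). Between the tumour libraries none of 19 was higher and 17 were lower in scratch-positive (-1.09). Gbp2, a guanylate-binding protein that attacks the vacuoles of microbes, was at 33.7 CPM in control (25.4 to 43.8), 631 in scratch-negative (591 to 673) and 335 in scratch-positive (303 to 369). That was 18.7-fold (14.3 to 25.1) and 9.95-fold (7.49 to 13.4) above control. Its UMIs were spread over 57.9% and 48.5% of the core cells of the tumour libraries, against 17.0% in control, and neutrophils held 3.35, 68.2 and 58.2 CPM.

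Cxcl10, the chemokine that draws activated T cells, was at 91.8 in control, 1894 in scratch-negative and 732 in scratch-positive, 20.6-fold (17.5 to 24.5) and 7.97-fold (6.70 to 9.54) above control. The 5 highest cells held 35.4% of the Cxcl10 UMIs of scratch-negative and 73.1% of those of scratch-positive. Irf1, a transcription factor made early in the response, was at 71.6, 447 and 308 and had a UMI in 39.8%, 76.3% and 69.9% of cells. Socs1, the brake on the pathway, was at 19.0, 305 and 145, and Cd274, which encodes the checkpoint ligand PD-L1, at 7.96, 139 and 64.5. Cd274 was thus 17.5-fold (10.0 to 33.4) above control in scratch-negative and 8.10-fold (4.47 to 15.9) in scratch-positive. Cxcl9 was at 79.6, 296 and 303, but in control 2 cells held all of it and in scratch-positive 5 cells held 81.1%. Over all members the fall between the tumour libraries was smaller, with 6 of 20 genes lower and a median of -0.30.

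All 30 genes of the type I list differed between the tumour libraries. In core cells 24 of 30 were higher and none lower in scratch-negative against control (median log2 ratio 0.91). In scratch-positive against control 2 were higher and 18 lower (-0.83). In scratch-positive against scratch-negative 30 of 30 were lower (-1.67), where 9.81% of all genes were called lower. Over all members the 3 counts were 23 higher and 0 lower, 3 higher and 11 lower, and 0 higher and 24 lower.

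Ifit2, which binds viral RNA, was at 33.7 CPM in control (25.4 to 43.8), 160 in scratch-negative (140 to 182) and 6.61 in scratch-positive (2.86 to 13.03). It was 24.2-fold lower in scratch-positive than in scratch-negative (12.1 to 56.7), though in control 5 cells held 90.9% of its UMIs. Mx1, an antiviral GTPase, was at 32.4, 87.1 and 5.79, 15.0-fold lower between the tumour libraries (7.10 to 38.2). Isg15, a ubiquitin-like protein, was at 193, 592 and 171 and was 3.46-fold lower (2.97 to 4.04). Rsad2, viperin, was at 52.6, 194 and 33.1 and was 5.87-fold lower (4.21 to 8.39). Irf7, the factor that amplifies type I interferon, was at 174, 287 and 77.7. Ifitm3, which blocks viral entry and was present in nearly every core cell, was at 5100, 5171 and 2927, 1.77-fold lower in scratch-positive than in scratch-negative (1.70 to 1.84). For most of these genes scratch-negative was highest and scratch-positive lowest.

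The neighbours showed the same order for Ifit2. C1q-high cells held 45.4 CPM in scratch-negative and 11.6 in scratch-positive, and Arg1-positive cells 30.6 and 10.3. Neutrophils held 3.76 in control, 8.51 in scratch-negative and 3.51 in scratch-positive. The level in core cells of scratch-negative, 160, was the highest of these classes. The neighbours were not held to the core limits here, and 48 of 67 C1q-high and 104 of 137 Arg1-positive cells of scratch-negative were S100-high. Over all members of scratch-negative, S100-high ones included, Ifit2 was at 76.7.

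**Figure D4:**
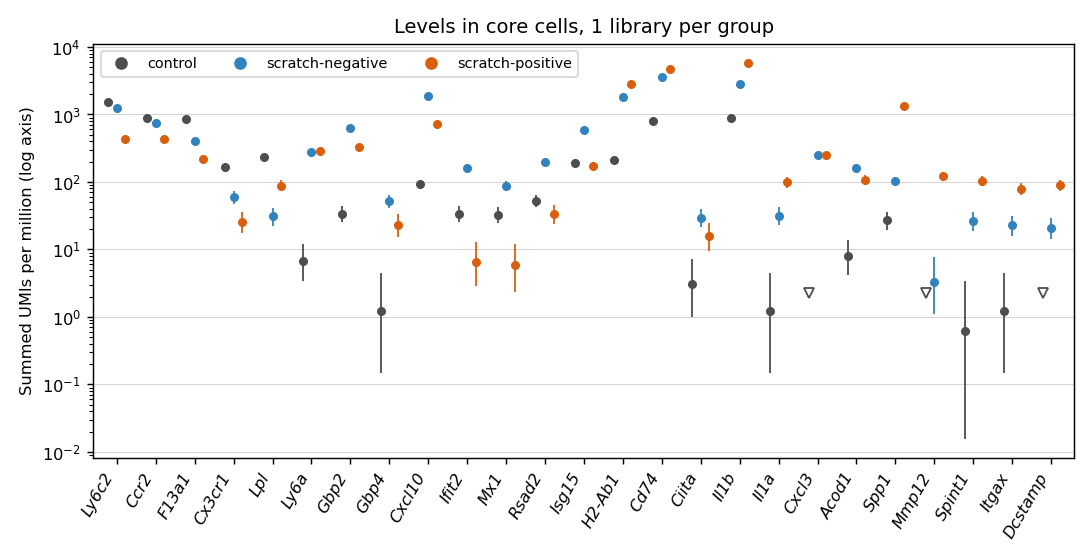
Summed CPM (y axis, log scale) of selected genes in core cells of the 3 libraries, with exact Poisson 95% intervals. Open triangles stand at the upper limit of that interval for genes at 0. Gbp2 and Cxcl10 are highest in scratch-negative, Ifit2 and Mx1 are lowest in scratch-positive, and H2-Ab1 and Il1b are highest in scratch-positive.

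Inflammatory cytokines and chemokines were mostly higher in both tumour libraries than in control. Of 26 measured in core cells, 21 were higher in scratch-negative than in control and none lower (median log2 ratio 1.93). Of 25 measured in scratch-positive, 18 were higher and 3 lower (2.31). Between the tumour libraries 10 were higher and 6 lower of 28 (-0.04). Il1b was at 877 CPM in control (832 to 924), 2845 in scratch-negative (2760 to 2932) and 5694 in scratch-positive (5561 to 5830). It was 3.24-fold (3.05 to 3.45) and 6.49-fold (6.13 to 6.88) above control, and 5 cells held 18.1% to 21.7% of its UMIs. Neutrophils held 458, 900 and 1297 of Il1b. The median core cell held 1.77, 10.3 and 50.1 Il1b UMIs per 10000.

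Cxcl2, which attracts neutrophils, was at 93.0, 1620 and 3322, 17.4-fold (14.8 to 20.6) and 35.7-fold (30.4 to 42.3) above control. In neutrophils Cxcl2 was at 122, 1270 and 2168. The 5 core cells with the most Cxcl2 held 63.2%, 60.05% and 52.1% of it. Cxcl3 had 0 UMIs in control and was at 252 in both tumour libraries, at least 137-fold higher, but in scratch-negative 5 cells held 97.6% of it. Tnf was at 11.6, 75.7 and 158, and Il1a at 1.22, 31.5 and 99.2, against 0.566, 15.3 and 44.4 in neutrophils. Ptgs2, the inducible enzyme of prostaglandin synthesis, was at 84.5, 204 and 419. Cxcl16 was at 20.2, 70.3 and 246 and was called higher in each comparison. Il1rn, the interleukin 1 receptor antagonist, was at 24.5, 229 and 214 and so did not differ by the call limit between the tumour libraries.

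Some chemokines were highest in scratch-negative. Ccl24 was at 1.84, 134 and 2.48, with 90.5% of the scratch-negative UMIs in 5 cells. Ccl12 had 0 UMIs in control and scratch-positive and was at 22.8 in scratch-negative. Ccl5 was at 12.2, 44.2 and 17.4. Il6 was at 12.2, 10.7 and 2.48 and was called lower in scratch-positive against either other library. The chemokines Ccl6 (1049, 824 and 483) and Ccl9 (460, 316 and 282) were lower in scratch-positive than in control.

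Sensors and their feedback genes went with the cytokines. Of 21 measured, 13 were higher in scratch-negative against control and none lower, and 14 were higher and 2 lower in scratch-positive against control. Nfkbia, the inhibitor that NF-kB induces, was at 452, 883 and 1766. Clec4n, a receptor of fungal sugars, was at 27.5, 151 and 551, 20.02-fold above control in scratch-positive (14.8 to 27.7). Acod1, which makes itaconate, was at 7.96, 161 and 107. Nlrp3, the inflammasome sensor, was at 91.2, 186 and 244. Of 14 phagocytosis, scavenger and Fc receptor genes 6 were higher and 1 lower in scratch-negative, and 7 higher and 1 lower in scratch-positive. Among them Fcgr4 was at 7.96, 113 and 91.8, and Fcgr1 at 82.0, 198 and 168.

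Stress genes that respond to tissue digestion are given beside these, since the libraries were digested separately. Of 14, 7 were higher and none lower in scratch-negative against control, and 6 higher and 1 lower in scratch-positive against control. Egr1 was at 15.9, 95.8 and 122, and 5 cells held 76.9% of it in control and in scratch-negative. Hspa1b was at 105, 142 and 38.9. Their part in the inflammatory values was not tested.

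**Figure D5:**
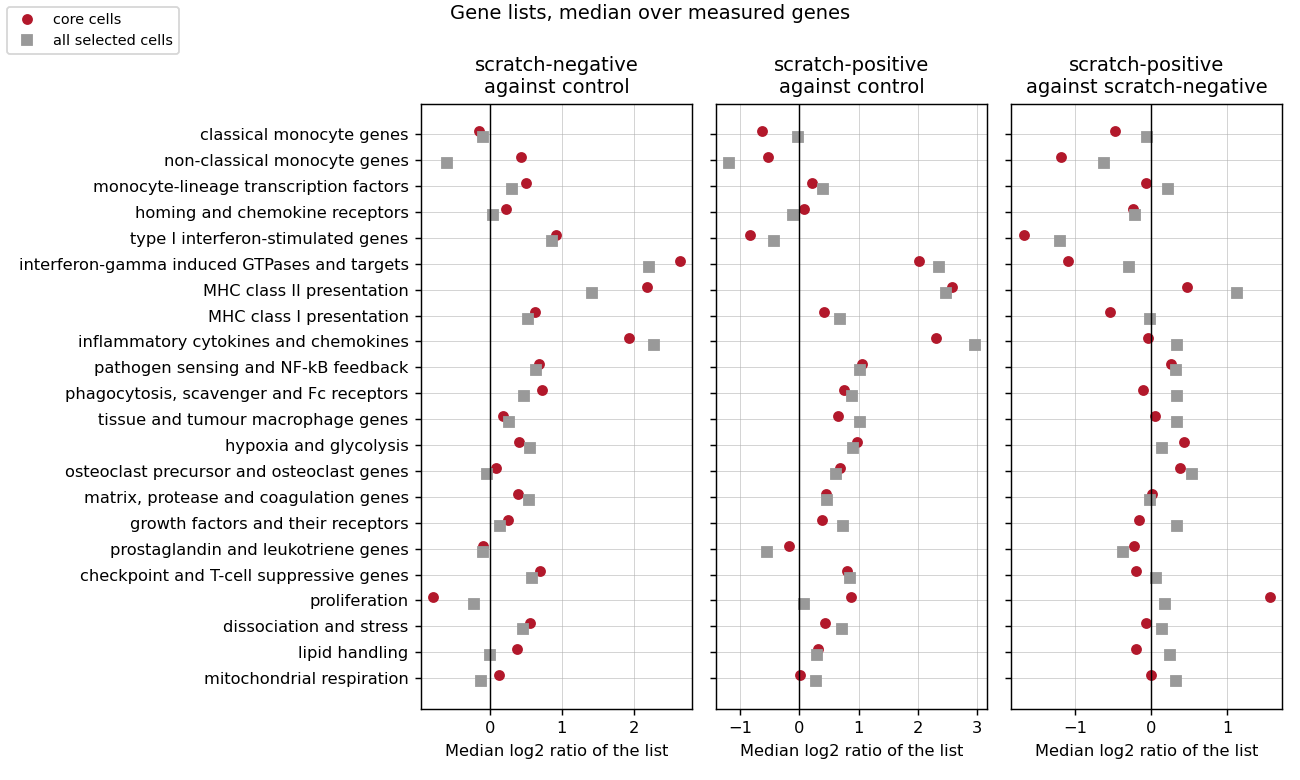
Median log2 ratio (x axis) of the measured genes of each list (y axis) for the 3 comparisons, in core cells and in all members. Interferon-gamma targets, MHC class II and inflammatory genes lie to the right of 0 in both comparisons with control, and type I interferon genes lie at 0.91 in core cells of scratch-negative and at -0.83 in those of scratch-positive.

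Some macrophage and osteoclast genes were at higher levels in core cells of scratch-positive than in those of control, several of them held mostly by a few cells. Of 18 tissue and tumour macrophage genes, 8 were higher and 3 lower in scratch-positive against control, and in scratch-negative 5 of 19 were higher and 1 lower. Spp1, osteopontin, was at 26.9 CPM in control, 102 in scratch-negative and 1328 in scratch-positive, 49.3-fold (36.6 to 68.1) above control in scratch-positive. There 5 cells held 74.4% of its UMIs, and the median core cell held 1.61 per 10000. Neutrophils of that library held Spp1 at 1251 CPM and keratin-positive cells at 3638. Cd9, a tetraspanin, was at 41.6, 89.8 and 551 and had a UMI in 17.5%, 30.3% and 68.0% of core cells, and keratin-positive cells held 1308 and 1234 in the tumour libraries and neutrophils 543, 586 and 862. Cd63 was at 36.1, 39.5 and 217. Mmp12, macrophage elastase, had 0 UMIs in control, was at 3.35 in scratch-negative and at 121 in scratch-positive, at least 65.7-fold above control, with 64.4% in 5 cells. Apoe went down, at 948, 792 and 607, 1.56-fold lower in scratch-positive than in control (1.43 to 1.71).

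Osteoclasts form from Csf1r-positive precursors when the receptor encoded by Tnfrsf11a is engaged and the factor Nfatc1 is switched on. Of 22 osteoclast genes measured in scratch-positive against control, 11 were higher and 1 lower (median 0.69), and of 21 against scratch-negative 8 were higher and none lower. Dcstamp, which cell fusion requires, had 0 UMIs in control and was at 20.8 in scratch-negative and 90.1 in scratch-positive, at least 11.3-fold and 49.1-fold above control. Osteoclasts, gated by Ctsk, held Dcstamp at 90.8, 141 and 288, and numbered 37, 80 and 1170 cells. The summed osteoclast markers of core cells were highest in scratch-positive, at 527 CPM against 125 in control and 95.1 in scratch-negative. That sum includes Dcstamp, Acp5 and Ocstamp, so it is not separate from the values given here. The part of osteoclast RNA in these values was not tested. At 5000 UMIs a cell, 0%, 4.38% and 15.8% of core cells held a Dcstamp UMI. Nfatc1 was at 47.1, 27.5 and 80.2, Tnfrsf11a at 11.02, 11.4 and 23.1, and Ocstamp at 0.612, 2.68 and 12.4. Acp5, the acid phosphatase of osteoclasts, was at 76.5, 14.7 and 254, with 80.8% of the last in 5 cells, and its fall in scratch-negative reversed without the deepest 5% of cells (log2 ratio 0.53). Itgb3, the osteoclast integrin chain, was at 11.02, 2.01 and 0.827 and was called lower in both tumour libraries. Calcr, the calcitonin receptor of mature osteoclasts, had 0 UMIs in core cells of every library.

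Glycolytic genes were higher in scratch-positive. Of 23 hypoxia and glycolysis genes, 13 were higher than in control and none lower (median 0.97), while in scratch-negative 7 of 24 were higher and 1 lower. Ldha, lactate dehydrogenase, was at 263, 372 and 664, and had a UMI in 77.8%, 90.1% and 93.2% of core cells. Gapdh was at 952, 1157 and 1975, and Aldoa at 430, 465 and 904. Mif, a cytokine whose gene responds to hypoxia, was at 189, 218 and 512. Slc2a1, the glucose transporter, was at 28.2, 67.6 and 74.4, higher in both tumour libraries. Vegfa, the vessel growth factor, was lowest in scratch-negative, at 96.1, 59.6 and 125. In mitochondrial respiration genes 0 of 17 were called in scratch-negative and 4 of 17 were higher in scratch-positive against control.

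Growth factors and matrix genes varied gene by gene. Of 24 growth factor and receptor genes 10 were higher and 1 lower in scratch-negative against control, and of 25 in scratch-positive 11 were higher and 3 lower. Csf1, the ligand of Csf1r, was at 0.612, 36.8 and 26.5, on 1 UMI in control, while fibroblasts held 130, 98.5 and 33.4. Areg, an EGF-family ligand, was at 3.06, 48.9 and 24.0. Pdgfa was at 2.45, 4.02 and 57.0, but 5 cells held 94.2% of it. Of 22 matrix, protease and clotting genes 10 were higher and 3 lower in scratch-negative, and of 20 in scratch-positive 9 were higher and 5 lower. Timp1, an inhibitor of metalloproteinases, was at 2.45, 45.5 and 45.5, below the 159 and 239 of neutrophils in the tumour libraries. Mmp14 was at 10.4, 24.1 and 90.1, and F5, a clotting factor, at 82.0, 46.2 and 21.5. Fibroblast markers were also highest in scratch-negative core cells, at 241 CPM, and their part in the matrix values was not tested.

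Lists of lipid mediators, lipid handling and checkpoints held calls in both directions. In scratch-positive against control 3 of 12 prostaglandin and leukotriene genes were higher and 2 lower, 5 of 18 lipid genes higher and 3 lower, and 9 of 16 checkpoint genes higher and 1 lower. Over all genes of that comparison 14.5% were called higher and 12% lower, so the lower calls of the prostaglandin and lipid lists stood near the share of all genes. Hpgd, which inactivates prostaglandins, was at 130, 56.9 and 19.8, 2.29-fold (1.77 to 2.98) and 6.57-fold (4.299 to 10.48) lower than in control, while Ptgs2 was higher in both. Lpl, lipoprotein lipase, was at 237, 30.8 and 88.5 and was 7.71-fold (5.67 to 10.7) lower in scratch-negative than in control. Fibroblasts held Lpl at 413, 46.8 and 15.1. It had a UMI in 46.8% of control core cells, 11.8% of scratch-negative and 12.6% of scratch-positive. Of the checkpoint list, Havcr2 was at 21.4, 54.3 and 93.4, and Vsir, which encodes VISTA, was at 193, 125 and 87.6 and was called lower in both tumour libraries. Of 17 lineage transcription factors 8 were higher and none lower in scratch-negative, and of 18 in scratch-positive 7 were higher and 3 lower. Irf8 was at 88.8, 267 and 116, Maf at 27.5, 71.0 and 18.2, and Bhlhe40 at 17.8, 58.3 and 158.

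Values of proliferation genes varied with depth. In core cells 11 of 18 were lower and none higher in scratch-negative against control (median -0.78), 13 were higher and none lower in scratch-positive against control (0.87), and 14 were higher between the tumour libraries (1.56). Top2a was at 132, 55.6 and 199, and 5 cells held 61.1%, 75.9% and 57.3% of it. With core cells thinned to 5000 UMIs the first median was -0.02 and the last 0.94. At that depth cells with at least 2 UMIs of 5 cycle genes made up 10.1% of core cells in control (5.86 to 15.8), 10.9% in scratch-negative (6.26 to 17.4) and 20% in scratch-positive (12.5 to 29.5), with overlapping intervals. Among neutrophils thinned alike such cells made up 27.0%, 33.0% and 41.5%. Over all members 0, 2 and 2 genes of this list were called in scratch-negative against control, scratch-positive against control and between the tumour libraries. Several histone genes were among the largest falls of scratch-negative core cells, such as Hist1h4c at 9.38 against 41.6 and Hist1h3c at 17.4 against 73.5, with 69.1% and 82.5% of control UMIs in 5 cells.

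Among the genes with the largest ratios by the naming rule, some lie outside the lists. Spint1, an inhibitor of serine proteases, was at 0.612, 26.1 and 104 and had a UMI in 0.585%, 13.2% and 46.6% of core cells. Upp1, uridine phosphorylase, was at 0.612, 60.3 and 89.3. AA467197 was at 6.12, 235 and 727. Il23a, an interleukin 23 chain, had 0 UMIs in control and scratch-negative and was at 43.0 in scratch-positive, with 96.2% of it in 5 cells. Ccl17 and Mgl2, genes of monocyte-derived dendritic cells, were at 0, 53.6 and 191 and at 4.28, 118 and 147, with 83.5% to 100% and 64.6% to 100% in 5 cells. Cd209a, of the same kind, was at 27.5, 37.5 and 0.827. Zbtb46 and Ccr7 were absent from control core cells and Xcr1 and Clec9a from those of both tumour libraries.

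Among the falls of scratch-positive, Cd177 was at 85.7, 43.5 and 9.92 and Padi4 at 32.4, 13.4 and 3.31. Both are genes of neutrophils, and the summed neutrophil markers of core cells were also lowest in scratch-positive. Ldlrad3 was at 42.2, 18.8 and 4.13, and Sort1, sortilin, at 50.8, 15.4 and 9.09. Over all 911 members the 12 largest falls of scratch-positive against control included 4 globin genes and Car1, of which 5 cells held 87.0% to 89.6%. Retnla, among the 12 largest rises there, came from 1 cell of scratch-positive and was at 0 in core cells.

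Against their neighbours core cells of scratch-positive had more Ly6c2 and F13a1. F13a1 in scratch-positive was at 217 in core cells, 34.7 in C1q-high cells and 83.7 in Arg1-positive cells, and Ly6c2 at 427, 149 and 192. Most Arg1-positive cells there were S100-high, and S100-high members had F13a1 at 58.2, below Arg1-positive cells. Within the same limits on S100 and other-class RNA as core cells, 107 C1q-high and 125 Arg1-positive cells of scratch-positive had F13a1 at 35.8 and 59.96 and Ly6c2 at 52.3 and 24.6. In scratch-negative F13a1 was at 407 in core cells, and at 31.1 in 18 C1q-high and 146 in 17 Arg1-positive cells within those limits, and Ly6c2 at 1251, 323 and 274. H2-Ab1 in scratch-positive was at 2798 in core cells, 2731 in C1q-high cells and 1050 in Arg1-positive cells. Il1b there was at 5694, 3827 and 4261, and Gbp2 at 335, 138 and 157. Cx3cr1 was at 25.6, 94.3 and 54.7. Within the core limits the C1q-high and Arg1-positive cells of scratch-positive had H2-Ab1 at 3721 and 1058. Their Il1b was at 3728 and 3551, their Gbp2 at 134 and 105, and their Cx3cr1 at 119 and 67.3. In scratch-negative such cells had H2-Ab1 at 3797 and 2299, each above core cells. Their Il1b was at 1092 and 3318 and their Gbp2 at 420 and 757. For Il1b and Gbp2 only the Arg1-positive values were above core cells. These gates use measured genes and the classes differ in depth, so the values are a description.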

How the data were processed

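The 3 libraries were made with the 10x 3′ v3.1 chemistry and sequenced on a DNBSEQ-G400, per the labels' protocols. The deposited values are whole UMI counts per gene and cell barcode, from Cell Ranger 6.1.2 (as the file headers state) on the mm10 build per the submitters' processing notes, and limited to 7490, 8517 and 9504 barcodes in control, scratch-negative and scratch-positive. Kept cells had medians of 9078, 11817 and 38658 UMIs, so a gene is seen more readily in a cell of scratch-positive. Each kept barcode had at least 500 genes and at most 10% mitochondrial UMIs.

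Counts were summed over members per library. Levels in CPM carry exact Poisson intervals, shares exact Clopper-Pearson intervals and ratios conditional binomial intervals, all at 95% and for counting error only. Genes needed 10 UMIs in the 2 libraries compared, and 13 genes of the selection rule were left out of the calls. Log2 ratios use a prior of 0.5 UMIs, and a gene at 0 was set to 3 UMIs for a lower bound. With 1 library per group no p-value was computed. The call rule was tried on simulated Poisson counts without variation between cells or mice. That trial cannot show how the rule behaves where a few cells hold most UMIs of a gene. Doublets were kept, as the rule says, since Scrublet called 1, 0 and 581 cells, and removing the highest scores (0.8% per 1000 barcodes) was an alternative.

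Members, gene lists and tests were chosen with earlier results of these data known. The core cells were defined after the values had been seen, with S100 under 200 UMIs per 10000 where 50 had been planned. They also held less than 20 of collagens or globins, less than 5 of the B, T or natural killer genes and less than 10 of Tm4sf1. Named genes were, per comparison, the 12 called genes with the highest and the 12 with the lowest ratio among those with at least 50 UMIs, leaving out predicted, receptor-segment, mitochondrial, ribosomal and sex-linked genes and genes below 10% of their level in another class, plus up to 4 called genes per list with the largest change and the 4 markers. Other genes of the 22 fixed lists were named after their values were seen. Promoter windows came from RefSeq on GRCm38.p6. Some genes of the lists are not reported here by name. Scrublet ran in scanpy 1.11.5, the tables and tests in pandas 2.3.3, numpy 2.4.6 and scipy 1.17.1, and figures in matplotlib 3.10.9, under Python 3.11.15.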

Additional observations from a re-analysis of the deposited data

How the results depend on the processing

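No paired analysis was possible because each group had 1 library. Each gene result was counted once per alternative setting. Direction and call held in 3096 such counts over all members and in 2944 in core cells. Another 204 and 128 kept their direction and lost the call, and 20 and 3 reversed. A UMI minimum does not change the ratio of a gene, so 2 settings (minimum 50 UMIs and none) each gave 285 and 284 held counts by construction. Under equal weight per cell, which is 1 setting, 88 gene results moved by over 1.5-fold over all members and 197 did not. In core cells 48 moved and 236 did not. The cause was not tested unless stated. Values below are for all members unless core cells are named, log2 ratios for genes and list medians, and in the order scratch-negative against control, scratch-positive against control, scratch-positive against scratch-negative where 3 are given.

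Shares of Ptprc-positive cells depended on depth: thinned to 3000 UMIs they were 2.18%, 2.74% and 3.30% in control, scratch-negative and scratch-positive, and 1.61% and 1.73% for core cells of the first pair. In scratch-positive the share was 3.703% with 0 Arg1 UMIs, 5.18% with Arg1 under 3 per 10000, and 3.53% (core 1.45%) with a Ly6c2 UMI required. It was 6.31% in scratch-negative at 1000 genes and 4.63% in control without the highest Scrublet scores. Core cells among core cells and neighbours within the same limits, chosen after seeing the data, were 81.3% in scratch-negative and 30.7% in scratch-positive.

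A 2-fold limit lowers every count by construction. Higher genes were 1194 in scratch-positive against control and 912 between the tumour libraries, lower genes 334, 547 and 518. In core cells higher genes were 513, 823 and 589 and lower genes 263, 662 and 490. Median-of-ratios scaling gave 1181 higher and 1492 lower genes between the tumour libraries. A minimum of 50 UMIs, which tests fewer genes, gave 744 higher genes in scratch-negative and 636 between the tumour libraries in core cells, with core medians of 1.52 for MHC class II in scratch-negative and 0.14 for checkpoint genes in scratch-positive against control. Thinning to 5000 UMIs gave 705, 1092 and 871 higher genes and 571 lower between the tumour libraries. In core cells it gave 874 and 436 higher (scratch-positive against control and against scratch-negative), 373, 722 and 495 lower, and proliferation medians of -0.020 in scratch-negative and 0.94 between the tumour libraries. It reversed Cdk1 (core 0.12) and Fbxo32 (1.10) in scratch-negative, Irf4 (core -0.19) in scratch-positive against control and H2-Q6 (-0.16) between the tumour libraries.

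The core set in place of all members, an alternative chosen after seeing the data, gave 1326 and 975 higher genes in scratch-positive against control and against scratch-negative and 560 lower in scratch-negative. Medians became 2.18 (scratch-negative) and 0.47 (between the tumour libraries) for MHC class II, -0.63 for classical and 2.31 for inflammatory genes in scratch-positive against control, -1.09 for interferon-gamma targets between the tumour libraries, 0.87 and 1.56 for proliferation in the last 2 comparisons, and 0.44 (reversed) and -0.52 for non-classical genes in the first 2. It reversed Akap12 (1.63), Car2 (0.12) and S1pr1 (2.43) in scratch-negative, Mki67 (0.044) in scratch-positive against control, and Ccl8 (0.20), Igf1 (0.20), Irf5 (-0.066), Msr1 (-0.10), Ptges (1.82) and S100a4 (-0.11) between the tumour libraries.

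With S100a8 and S100a9 under 50 per 10000, 797 genes were higher between the tumour libraries. Medians were 2.22 for MHC class II, 0.83 for growth factors and 0.37 (reversed) for non-classical genes in scratch-negative; -0.78 for classical, -0.17 for non-classical, 0.13 for prostaglandin and -1.15 for type I genes in scratch-positive against control; and -0.88 for stress, -0.28 for growth factor and 0.78 for proliferation genes and 0.92 for inflammatory genes of core cells between the tumour libraries. It reversed Akap12 (2.90), Fabp4 (0.37), Fbxo32 (1.76) and S1pr1 (0.50) in scratch-negative, and Fpr2 (1.03) and Msr1 (-0.088) between the tumour libraries. Equal weight per cell gave non-classical medians of 0.12 (reversed) in scratch-negative and -0.37 (core 0.10) in scratch-positive against control. Retnla, held by 1 cell of scratch-positive, was -5.87 between the tumour libraries without the deepest 5% of cells and -5.90 without the highest Scrublet scores. Acp5 in core cells of scratch-negative was 0.53 without the deepest 5%.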
